A study of Caenorhabditis elegans with 4 samples.

Results

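BLMP-1 peaks of Caenorhabditis elegans embryos were examined where they lay close together on the chromosome. Starting from the peak list of the whole series, a run was defined as 3 or more successive peaks in which no gap between neighbours exceeded 1000 bp. Of 17858 peaks, 2298 (12.9%, exact 95% interval 12.4% to 13.4%) fell into 650 such runs. The other 15560 peaks comprised 11274 single peaks and 4286 peaks in 2143 pairs. Members were chosen by the start and end positions of the series peaks, so the number, length and spacing of runs are descriptions and were not tested.

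BLMP-1 belongs to the Blimp-1 family of zinc finger proteins that bind DNA, whose mammalian member is a repressor best known from B cell and germ cell development. In C. elegans it acts in the epidermis and in the timing of development, and the F-box protein DRE-1 limits its level. Transcription factors often occupy several neighbouring stretches of a regulatory region, and a peak caller may list these as separate peaks or join them into a single wide one.

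All libraries came from strain OP109 at the embryo stage, grown at 20 °C. Its genotype is unc-119 (ed3) III with the integrated transgene wgIs109, which carries blmp-1::TY1::EGFP::FLAG together with unc-119 (+). The transgene was introduced by biolistic transformation and the strain was not outcrossed, per the labels, and the genotype lists no change to the resident blmp-1 gene. Chromatin of whole embryos was fixed with 2% formaldehyde and precipitated with antibodies against GFP (ChIP), in 2 ChIP samples with 2 matching input samples. Cell types are therefore pooled, and a run may combine peaks that are occupied in different cells. No input list was analysed here, so background was not measured in the same way, and binding at these peaks is not established by the lists alone.

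Peaks were given in 3 lists, 1 for the whole series, 1 for ChIP replicate 1 (11261 peaks) and 1 for ChIP replicate 2 (3009 peaks). The lists hold no read counts, so depth is unknown. Each peak has a score of the authors, read here as a q-value that is smaller for stronger peaks. Peak numbers reach 18286 in the series list, so 428 numbered peaks were not analysed here. In replicate 1 they reach 11409 and 148 are missing, and in replicate 2 0 are missing. A peak missing between listed neighbours would split or shorten a run. Missing replicate 1 peaks could also lower the overlap counted for that replicate.

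Most runs were short. Of the 650 runs, 450 (69.2%) held 3 peaks, 117 (18.0%) held 4 and 44 (6.77%) held 5. Another 23 runs held 6 peaks, 9 held 7 and 5 held 8, and there was 1 run each of 9 and 10 peaks. Run length was thus concentrated at the minimum that the rule allows, with a thin tail above it.

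From the first to the last base, runs spanned 673 to 9434 bp, with a median of 1982.5 bp and quartiles of 1515 and 2622.75 bp. Runs of 3 had a median span of 1755 bp, runs of 4 of 2594 bp and runs of 5 of 3118.5 bp. Peaks filled a median of 34.8% of a run (quartiles 26.3% and 46.7%), so most of a typical run lay between peaks rather than in them. Gaps inside runs had a median of 510 bp with quartiles of 328 and 735 bp. The smallest gap anywhere in the series list was 201 bp. All runs together spanned 1456776 bp, or 1.45% of the 100.2 Mb between the chromosome starts and the last listed peaks.

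**Figure D1:**
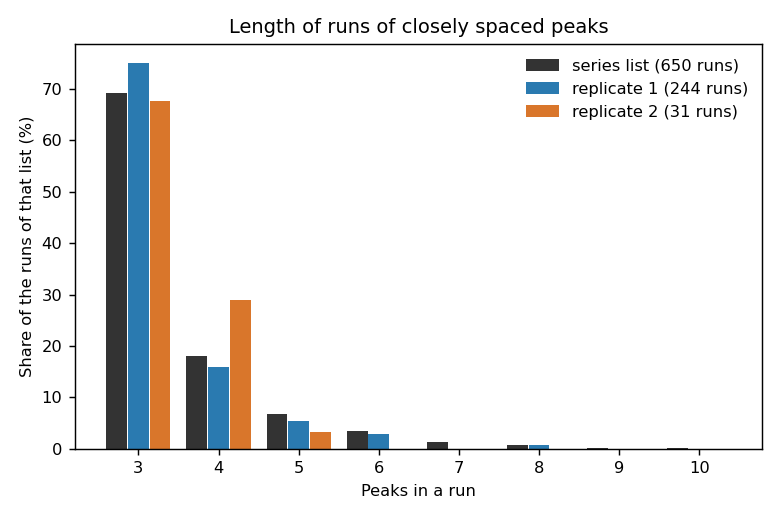
Bars show the share of runs (%) by the number of peaks in a run, for the series list and for each replicate list under the same rule. Runs of 3 peaks made up 69.2%, 75% and 67.7% of runs in the series list, replicate 1 and replicate 2, and runs of 9 and 10 occurred in the series list alone.

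Run membership changed with small shifts of the limit. Inside runs, 154 gaps were above 900 bp. With gaps of up to 900 bp, 353 members would leave the runs. They had a median width of 176 bp and a median score of 3.55e-05. Of these, 47% overlapped a replicate 1 peak and 22.7% a replicate 2 peak. With gaps of up to 1100 bp, 430 peaks would join. Their median width was 158 bp and their median score 4.00e-05, and 47.4% overlapped replicate 1 and 16.3% replicate 2. Over all series peaks the shares were 45.1% and 15%, and over all members 50.6% and 23.5%.

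The longest runs lay on chromosome IV, WS220 coordinates throughout. IV 3861413 to 3868689 held 10 peaks over 7277 bp, and IV 3846398 to 3855831 held 9 peaks over 9434 bp, the widest span of any run. Between them lay a run of 3 peaks, IV 3856852 to 3859910, separated by 1020 bp from the run before and by 1502 bp from the run after. With gaps of up to 2000 bp these became a single run of 24 peaks from IV 3846398 to 3870898, which spanned 24501 bp. No gene is named here, because the gene table at hand follows another genome build than the peak lists.

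In the run of 10 peaks the strongest members lay towards its right end. They were IV 3867175 to 3868202 (1028 bp, score 5.64e-25) and IV 3865862 to 3866810 (949 bp, 4.83e-20), and the weakest was IV 3864202 to 3864229 (28 bp, 0.000718). Replicate 1 overlapped 6 of the 10 members and replicate 2 overlapped 4, of which 2 were common to both. The strongest member had a replicate 1 peak of score 5.57e-21 (rank 186 of 11261) and no replicate 2 peak. The members at IV 3863135 and 3863818 were both overlapped by the same replicate 2 peak, IV 3863166 to 3863833 (668 bp, 7.16e-07), and by no replicate 1 peak. Most supported members of this run were thus found in 1 replicate and not in the other.

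In the run of 9 peaks, replicates 1 and 2 each overlapped 5 members, 4 of them in common. Its strongest member was IV 3852370 to 3854314 (1945 bp, 3.02e-31). Replicate 2 had there a peak of 1494 bp and score 3.30e-18 (rank 80 of 3009), and replicate 1 had a peak of 199 bp and score 0.000186 (rank 5923 of 11261). The next member, IV 3854600 to 3855831, was overlapped by both, with scores of 3.14e-08 in replicate 1 and 6.84e-06 in replicate 2. Peaks of 8 bp at IV 3846942 and 3849602 were in neither replicate, and nor was the wider IV 3847373 to 3847927 (555 bp, 3.00e-07). A score depends on the list it comes from, so scores of the replicates given side by side do not measure a difference between them.

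The 5 runs of 8 peaks are described by how the replicates covered them. For comparison, 45.1% of all series peaks overlapped a replicate 1 peak and 15% a replicate 2 peak. What these shares alone would give in single runs was not computed. The counts for these runs and for the runs of 7 peaks are thus descriptions, not results about the runs. At I 1268714 to 1274894, replicate 1 overlapped 6 members and replicate 2 overlapped 4, all 4 of them common to both. This run held the strongest single member among the 10 runs with most peaks, I 1273557 to 1274283 (score 2.21e-95, rank 22), which ranked 26 in replicate 1 and 19 in replicate 2. At V 12348763 to 12354908, replicate 1 overlapped 7 members and replicate 2 the 2 strongest, V 12354137 (2.41e-45) and V 12349278 (2.04e-24). Members in neither replicate included narrow ones such as I 1272005 to 1272021 (17 bp, 0.000508). They also included wider ones such as V 20658464 to 20658842 (379 bp, 5.85e-08), in another of these runs.

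The run V 20657131 to 20663260 had 4 members in replicate 1 and 3 in replicate 2, with its strongest at V 20660177 (1258 bp, 1.28e-72). III 9637622 to 9642610 had 3 and 2. II 10547700 to 10553109 had 4 members overlapped in replicate 1 and 0 in replicate 2. Its best member, II 10551896 to 10552332, had a score of 1.33e-09 (rank 1723), against a median best rank of 2331.5 over all runs. Most runs held 3 peaks, and best ranks were not compared at equal run length. Peaks filled 24.8% of the 5410 bp of this run. A single replicate 1 peak of 497 bp, II 10550653 to 10551149, overlapped a pair of its members, which were 53 and 7 bp wide.

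There were 9 runs of 7 peaks, and the 3 with the longest spans complete the 10 named here. V 19627494 to 19634642 had 5 members in replicate 1 and 1 in replicate 2, IV 14610082 to 14616458 had 3 and 3, and V 14505076 to 14511026 had 5 and 3. The first of these and IV 14610082 also belonged to the 5 widest, at 7149 and 6377 bp, the fifth being I 1268714 at 6181 bp. At V 14505076 the 3 members common to both replicates were its 3 strongest, with scores of 7.41e-73, 3.35e-44 and 1.19e-20.

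Of the runs of 4 or more peaks, 1 had every member in both replicates, V 13413245 to 13417126. Its members were V 13413245 to 13413876 (score 1.14e-19), V 13414578 to 13415330 (1.95e-25), V 13415937 to 13416584 (2.71e-11) and V 13416976 to 13417126 (1.22e-05). Replicate 1 had scores of 1.99e-09, 9.01e-13, 1.70e-07 and 0.000672 at these members, and replicate 2 had 2.44e-09, 0.000174, 0.000411 and 0.000402. The second member was the strongest in replicate 1, and the first was the strongest in replicate 2. At the fourth member the replicate peaks, 13416975 to 13417029 and 13417037 to 13417208, did not overlap each other.

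**Figure D2:**
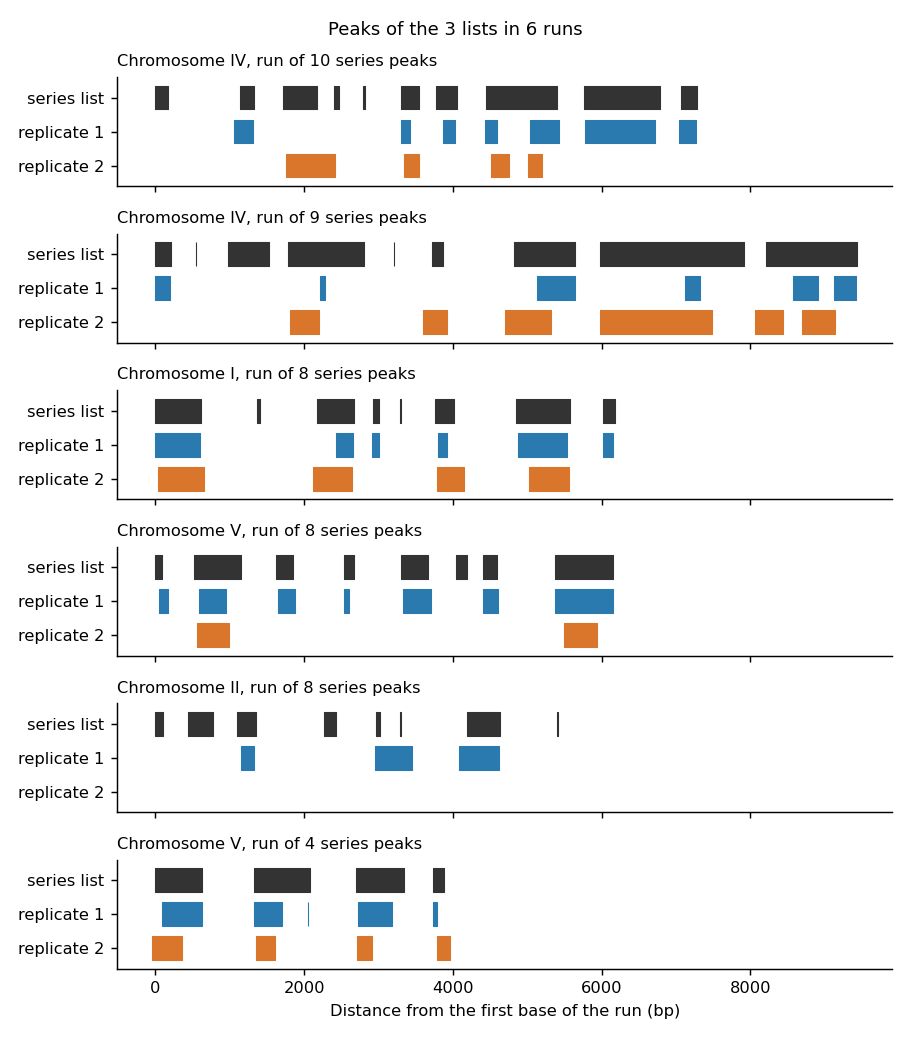
Peaks of the series list, replicate 1 and replicate 2 are drawn to scale for 6 runs, by distance from the first base of the run (bp). Replicate peaks cover 6 and 4 of 10 members in the upper panel, 4 and 0 of 8 members in the run on chromosome II, and all 4 members in the lowest panel.

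Support by the replicate lists, taken as an overlap of at least 1 bp, was more frequent for peaks in runs than for peaks outside them. Of the 2298 members, 1162 overlapped a replicate 1 peak (50.6%, exact 95% interval 48.5% to 52.6%), against 44.3% (43.5% to 45.1%) of peaks outside runs and 45.1% of all series peaks. Replicate 2 overlapped 539 members (23.5%, 21.7% to 25.2%), against 13.8% (13.2% to 14.3%) outside and 15% of all. Peaks of both replicates overlapped 357 members (15.5%, 14.1% to 17.1%), against 8.14% (7.71% to 8.58%) outside and 9.09% of all. Neither replicate overlapped 954 members (41.5%, 39.5% to 43.6%), against 50.1% (49.3% to 50.9%) outside and 49% of all.

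The differences were 6.27 percentage points in replicate 1 (Newcombe 95% interval 4.08 to 8.45), 9.68 in replicate 2 (7.91 to 11.5) and 7.4 for both together (5.91 to 8.99). These intervals cover counting error only. Neighbouring peaks are not independent, and 2 ChIP samples allow no test over samples. The supporting peaks were nearly as many as the members they overlapped, 1158 in replicate 1 and 530 in replicate 2. Whether the series list was called on the pooled reads of these libraries is not stated. If it was, overlap with the replicates is not independent support.

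Support was more frequent in longer runs in both replicates. Replicate 1 overlapped 43.1% of single peaks, 47.4% of peaks in pairs, 47.7% in runs of 3, 53.4% in runs of 4 and 55.8% in runs of 5 or more. The corresponding shares in replicate 2 were 12.7%, 16.5%, 21.5%, 24.8% and 27.7%. The exact intervals of single peaks (12.1% to 13.4%) and of runs of 5 or more (23.7% to 31.9%) did not overlap in replicate 2, nor did those in replicate 1 (42.2% to 44.0% and 51.3% to 60.3%). Intervals of runs of 4 and of runs of 5 or more overlapped in both lists, as did those of pairs and runs of 3 in replicate 1.

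Peaks in runs were also stronger and wider. Their median score was 2.60e-05 and their median width 178 bp (quartiles 85 and 321.75 bp), against 6.08e-05 and 145 bp (63 and 224 bp) outside. The strongest of 10 strength classes, which divide the series list into parts of nearly equal size, held 17.1% of the members and 8.95% of the peaks outside. Peaks under 50 bp made up 16.8% of members and 21.1% of the others. Median scores fell from 6.44e-05 for single peaks to 3.15e-05 in runs of 3, 2.29e-05 in runs of 4 and 1.05e-05 in runs of 5 or more. These are values of the list that defined the runs and are given without a test.

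Members and other peaks were then compared within 10 strength classes, parts of the series list by score. Inside a class, members and other peaks could still differ in strength. When the peaks outside runs were weighted to the members' own mix of 10 strength classes, replicate 1 overlapped 51.1% of them, so that the members lay 0.54 points lower (a difference of -0.54, 95% interval -2.37 to 1.29). Members had the higher share in 5 of the 10 classes. In replicate 2 the weighted share outside was 20.0% and the members lay 3.41 points higher (1.99 to 4.84), with the higher share in 10 of 10 classes. For both replicates together the difference was 1.26 points (0.223 to 2.29), with the higher share in 4 of 10 classes. Both shares were 0 in classes 8, 9 and 10, and the interval of the difference lay above 0 in 0 of 10 classes. With 100 classes this weighted difference fell to 0.49, and those of replicates 1 and 2 were -0.63 and 2.80. Weighting by 10 width classes instead left a difference of 1.01 points in replicate 1 and 4.51 in replicate 2. The separate parts of strength and width in the differences were not tested, nor was the difference between the replicates.

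Within single classes the 95% interval of the replicate 2 difference lay above 0 in the 2 strongest of 10, and that of replicate 1 in none. These intervals cover counting error only and are no test, since peaks of a run are not independent and many classes were compared. Differences in strength inside a class were not removed. In the strongest class, replicate 1 overlapped 95.7% of members and 96.6% of peaks outside. Replicate 2 overlapped 80.9% (76.7% to 84.7%) and 75% (72.7% to 77.3%) there, a difference of 5.9 points (Newcombe 95% interval 1.18 to 10.2). In the second class, replicate 2 overlapped 32.7% (27.2% to 38.6%) and 25.3% (23.1% to 27.6%), a difference of 7.42 points (1.66 to 13.6). In the weakest class the shares were 16.4% and 11.7% in replicate 1 and 3.17% and 1.75% in replicate 2. In the other 8 classes of replicate 2, and in all 10 of replicate 1, the interval of the difference held 0. Replicate 1 is the longer list. Reduced to its 3009 strongest peaks, it gave a difference of 7.2 points as listed and of -0.24 within 10 strength classes (-1.54 to 1.05).

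**Figure D3:**
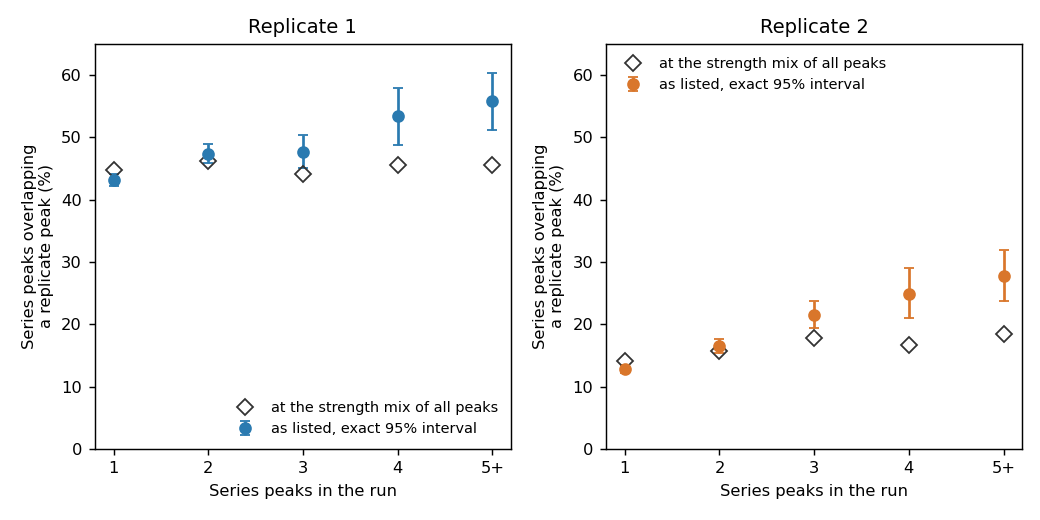
The share of series peaks overlapping a replicate peak (%) is plotted against the number of peaks in the run, as listed (filled circles with exact 95% intervals) and weighted to the strength mix of all series peaks (open diamonds). As listed, the share climbs from 43.1% to 55.8% in replicate 1 and from 12.7% to 27.7% in replicate 2. At equal strength it stays between 44.1% and 46.3% in replicate 1 and lies between 14.1% and 18.4% in replicate 2.

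**Figure D4:**
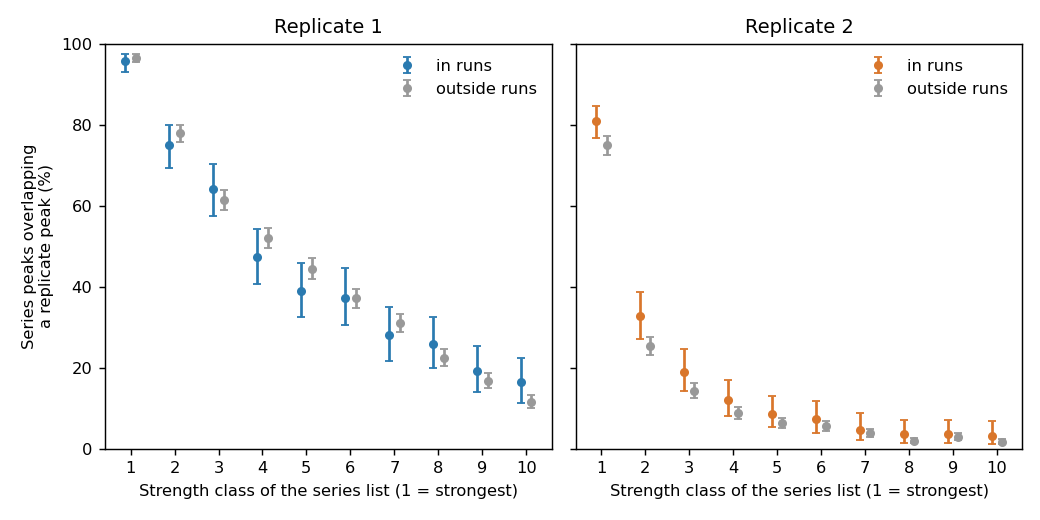
The share of series peaks overlapping a replicate peak (%) is plotted by strength class of the series list, from 1 (strongest) to 10, for peaks in runs (coloured) and outside runs (grey), with exact 95% intervals. In replicate 2 the coloured point lies above the grey one in all 10 classes, and in replicate 1 in 5 of them.

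The direction was the same on each chromosome as listed. The difference ran from 0.41 points on IV to 10.9 on X in replicate 1, and from 7.43 on III to 11.7 on X in replicate 2. Within strength classes the replicate 2 difference was above 0 on all 6 chromosomes, from 1.17 points on V to 4.88 on I. In replicate 1 it was above 0 on III, V and X, at most 3.66 points, and below 0 on I, II and IV, at lowest -4.93 on IV.

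At the level of whole runs, 567 of the 650 (87.2%, 84.4% to 89.7%) had at least 1 member in replicate 1 and 353 (54.3%, 50.4% to 58.2%) in replicate 2. At least 1 member common to both replicates was found in 251 runs (38.6%), and 50 runs (7.69%) had no member in either. Complete support was rare. Every member was in replicate 1 in 81 runs (12.5%), in replicate 2 in 10 runs (1.54%) and in both in 5 runs (0.769%). In the 450 runs of 3, replicate 1 overlapped 0, 1, 2 and 3 members in 74, 170, 144 and 62 runs. Replicate 2 did so in 235, 148, 59 and 8 runs. Partial support was thus the most frequent outcome for runs of 3 in replicate 1, and no support the most frequent in replicate 2. Over all series peaks, 45.1% overlapped a replicate 1 peak and 15% a replicate 2 peak. Counts per run depend on these shares and on the number of peaks in a run. The counts that the shares alone would give were not computed, so these outcomes are not results about runs.

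Few gaps inside runs were bridged by a single replicate peak. Among the 1648 gaps between neighbouring members, 1 replicate 1 peak overlapped both neighbours in 34 (2.06%) and 1 replicate 2 peak in 21 (1.27%). Only 1 neighbour was overlapped at 768 gaps in replicate 1 and 533 in replicate 2, and neither neighbour at 415 and 983. Those gaps could not be bridged, so the low shares depend on how many members each list overlapped. Separate peaks on both sides were found at 431 gaps (26.2%) in replicate 1 and 111 (6.74%) in replicate 2. At the 2143 gaps of pairs these shares were 22.8% and 3.45%, and 1 replicate peak overlapped both neighbours at 1.49% and 0.84%. Replicates 1 and 2 overlapped 47.4% and 16.5% of peaks in pairs, against 50.6% and 23.5% of members. Gaps of runs and pairs were not compared at equal strength or support. Replicate peaks that fell between members without touching any series peak were found in 23 runs (3.54%) for replicate 1 and in 3 runs (0.462%) for replicate 2.

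Inner members were overlapped more often than the members at the ends of runs. The shares were 53.7% (50.6% to 56.8%) of 998 inner and 48.2% (45.4% to 50.9%) of 1300 end members in replicate 1. In replicate 2 they were 25.9% (23.2% to 28.7%) and 21.6% (19.4% to 24.0%), and the intervals of the 2 kinds overlapped in both replicates. Inner members were also wider, at a median of 187 against 168.5 bp, and stronger, at a median score of 1.87e-05 against 2.89e-05. Longer runs hold a larger share of inner members. Inner and end members were not compared at equal strength or run length, so an effect of place was not tested. The strongest member was about equally often at each place in runs of 3, being the first in 147 runs, the middle in 157 and the last in 146. In the 117 runs of 4 it was the first in 22, the second in 40, the third in 27 and the last in 28.

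Whether the replicates ranked the same member of a run first could be compared in 73 runs that had at least 2 members in both lists, each with its own replicate peaks. The best ranked member was the same in 59 of them (80.8%, 69.9% to 89.1%). With few members to choose from, the same first member can also arise without any relation. The count was 45 of 53 runs with 2 shared members, 12 of 15 with 3 and 2 of 5 with 4. A further 5 runs were left out because members shared a replicate peak. This comparison used the replicate lists for the ranks and the series list only for the positions.

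The same rule was applied to each replicate list. Replicate 1 had 244 runs with 828 of its peaks (7.35%) and replicate 2 had 31 runs with 104 of its peaks (3.46%). Their longest runs held 8 and 5 peaks, and median spans were 2067.5 and 2706 bp. Of the series runs, 135 (20.8%, 17.7% to 24.1%) overlapped a run of replicate 1, and 135 of the 244 replicate 1 runs (55.3%, 48.9% to 61.7%) overlapped a series run. For replicate 2 the counts were 26 of 650 series runs (4%, 2.63% to 5.81%) and 25 of 31 replicate 2 runs (80.6%, 62.5% to 92.5%). Between the replicates, 19 of the 244 and 19 of the 31 runs overlapped each other. Shares of series runs are limited by the shorter replicate lists.

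Replicate runs without a series run usually had too few series peaks there. Of 109 such runs in replicate 1, 3 had no series peak, 12 had 1, 75 had 2 and 19 had 3 or more. The 6 such runs in replicate 2 had 1 series peak in 3 cases, 2 in 2 cases and 3 or more in 1 case. A position where the lists differed in how peaks were joined, chosen after its values were seen, was V 6350830 to 6354622. The series list had a single peak of 3793 bp there, while replicate 1 had a run of 3 peaks from 6350830 to 6354591 and replicate 2 a run of 4 from 6350935 to 6355543. The rule leaves this position out. None of the 6 series peaks wider than 3000 bp belonged to a run, the nearest run lay 27201 bp from such a peak, and the widest member measured 2020 bp.

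Runs present in all lists were few. A run of each replicate was overlapped by 16 series runs (2.46%, 1.41% to 3.97%), which held 3 to 10 peaks and had a median span of 4945 bp. IV and V held 4 each, II and III 3 each and X 2, and there were none on I. Replicate 1 overlapped 65 of their 86 members and replicate 2 overlapped 49, with 41 in both. Their best members had a median rank of 155 in the series list, against 2331.5 over all runs. They held a median of 5 peaks, while 69.2% of all runs held 3, and best ranks were not compared at equal run length. These runs had to hold 3 close peaks in each list, so their support is no separate result. Among them, named after their values were seen, X 15273023 to 15278314 held the strongest member (score 8.22e-170, rank 9). The neighbouring runs II 6823905 to 6827794 and II 6828801 to 6833975, 4 peaks each, were only 1006 bp apart, the smallest distance between any 2 runs.

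Runs were unevenly spread over the chromosomes. Chromosome II had the largest share of its peaks in runs, 473 of 2934 (16.1%, 14.8% to 17.5%), followed by IV with 14.8% (13.6% to 16.0%) and III with 13.4% (12.2% to 14.7%). V and X had 11.6% each, and chromosome I had 129 of 1715 (7.52%, 6.32% to 8.87%). The interval of IV overlapped those of II and III, and those of III, V and X overlapped, while II lay above III and I lay below all others. Chromosome I had 5.91 points less than the other chromosomes together (interval of the difference -7.19 to -4.47). It was the lowest in this same list, and the rule used the positions of these peaks. Peaks of a run also enter together, so the intervals cover counting error only and are no test.

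Chromosome IV had 141 runs (8.06 per Mb) and II had 134 (8.77 per Mb). V had 121 (5.79 per Mb), III had 108 (7.84 per Mb), X had 107 (6.04 per Mb) and I had 39 (2.59 per Mb). Peak density differed too, and was lowest on I at 114 series peaks per Mb. The orders were not identical, since III was densest at 207 peaks per Mb but ranked below II (192 per Mb) and IV (196 per Mb) in its share of peaks in runs. How far density accounts for the shares was not tested. In replicate 1, chromosome III led with 11% of its peaks in runs and I was last with 2.26%. Replicate 2 had 0 of its 31 runs on I, and IV and II led with 5.08% and 5.02%.

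**Figure D5:**
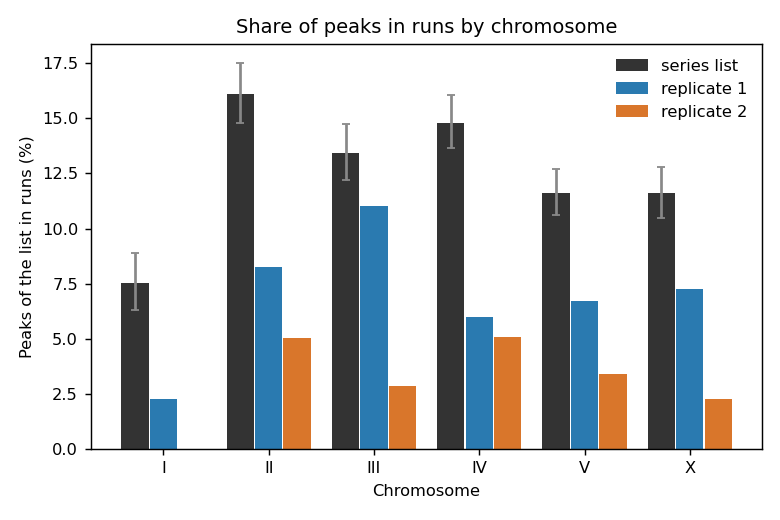
Bars show the share of each chromosome's peaks that lay in runs (%), for the series list with exact 95% intervals and for the replicate lists under the same rule. Chromosome I is lowest in each list, at 7.52%, 2.26% and 0, while the chromosome with the highest share is II in the series list, III in replicate 1 and IV in replicate 2.

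Along the autosomes, 14.8% (13.9% to 15.8%) of peaks lay in runs in the middle when each chromosome was divided into 3 equal parts, against 11.5% (10.6% to 12.4%) on the left and 12.9% (12% to 13.9%) on the right. Chromosome II showed the widest range, with 20.4% (18.0% to 22.9%) in the middle, 11.8% on the left and 15.3% on the right. On V the middle held 14.4%, against 11.3% and 8.99%. This order did not hold everywhere. On IV the right part was highest at 16.8%, and on I and X the left part was highest at 8.96% and 13.2%, against 6.77% and 10.6% in the middle.

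Runs were scattered, with a few groups of them. Of 1004 windows of 100 kb, 448 held at least 1 run. Of these, 297 held 1 run, 115 held 2 and 36 held 3 or more. Neighbouring runs lay a median of 86147 bp apart, and 70 of 644 neighbouring runs were within 10 kb of each other, 41 of them within 5 kb. The 3 windows with 5 runs each were IV 3800001 to 3900000 (28 members), V 19600001 to 19700000 (20 members) and IV 14600001 to 14700000 (19 members).

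These 3 windows, picked by their number of series runs, held unequal numbers of replicate 2 peaks. Over the whole lists, 12.9% of series peaks, 7.35% of replicate 1 peaks and 3.46% of replicate 2 peaks lay in runs. In the first, 28 of 41 series peaks, 13 of 28 replicate 1 peaks and 12 of 21 replicate 2 peaks lay in runs, and each replicate list had 3 runs of its own. The windows on V and at IV 14600001 held 3 and 4 replicate 2 peaks, none of them in runs. Replicate 1 had 3 runs in the V window and 2 at IV 14600001. In the V window 5 of 7 members of the run at 19627494 and 3 of 3 members of the run V 19635859 to 19638309 were in replicate 1. In replicate 2 they numbered 1 and 0. With shares of 45.1% and 15% over all series peaks, counts in so few members are not results about these runs or windows.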

How the data were processed

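Chromatin of OP109 embryos was measured by ChIP-seq in 2 ChIP samples with 2 inputs, grouped and numbered by their titles. Per the file headers, coordinates follow WormBase WS220 and peaks come from PeakSeq; the sources used here do not give its version, threshold, use of inputs or any pooling of reads. The deposited score, from 0 to 0.000991 in the series list, is the authors' own and was read as a q-value, since score times peak number never fell along the numbering (0 falling steps). Start and end positions were used as deposited, counted from 1.

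Peaks were sorted by chromosome and start, and runs were found with gaps of at most 1000 bp and at least 3 peaks. Overlap meant at least 1 bp and was checked with bedtools 2.31.1 (0 differences). Shares carry exact (Clopper-Pearson) 95% intervals, differences Newcombe intervals, and class-weighted differences normal intervals; all cover counting error only. Depth is unknown. Strength classes divide the series list by score into 10 equal parts. Chromosome lengths are the last peak ends over all lists. The replicate lists shared 0 identical intervals; the labels do not say whether they came from separate cultures. No test was run. Run finding and overlap were tested on simulated data. Computation used scipy 1.17.1, pandas 2.3.3 and numpy 2.4.6 under Python 3.11.15, and figures matplotlib 3.10.9.

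Members and comparisons were chosen with earlier results of these data known. Alternatives were other gaps, run lengths, overlap rules, list parts and replicate list lengths; class weighting, single peaks as the comparison and leaving out chromosome I were added after seeing the data. Runs named were the 10 with most peaks (ties by longer span), the 5 widest, and those of 4 or more peaks with every member in both replicates; others are marked as chosen later. The rule allowed gene names only with a WS220 annotation, and the gene table used here follows WBcel235, so genes, gene lists and sequences are not reported.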

Additional observations from a re-analysis of the deposited data

How the results depend on the processing

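Of 59 alternative values, 17 stayed within the 95% interval of the value reported. Among the 45 that are differences and could reverse, 41 kept their direction. The 4 that reversed were the replicate 1 difference in support, at -0.54 within 10 and -0.63 within 100 strength classes, -0.51 within classes of strength and width together, and -0.24 with equally long lists within 10 strength classes. All 4 were chosen after seeing the data.

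The share of series peaks in runs was 3.74% with gaps up to 500 bp, 32.9% with gaps up to 2000 bp, 6.89% in the stronger 50% of the list and 10.1% without peaks under 50 bp. In the same order the median span was 1443.5, 3062, 2369 and 2180.5 bp. The replicate 1 difference was 10.6 points with gaps up to 500 bp, 10.1 with at least 4 peaks, 3.95 with midpoints within 200 bp and 1.01 within 10 width classes. The replicate 2 difference was 6.97 with gaps up to 2000 bp, 11.9 with at least 4 peaks, 7.74 with midpoints within 200 bp and 15.2 in the stronger 50%. It was 3.41 within 10 and 2.80 within 100 strength classes, 4.51 within width classes and 3.20 within classes of strength and width together. For both replicates the difference was 9.56 and 5.51 with gaps up to 500 and 2000 bp, 10.2 with at least 4 peaks, 5.45 with midpoints within 200 bp and 13.4 in the stronger 50%. It was 1.26 within 10 and 0.49 within 100 strength classes, 2.59 within width classes and 1.13 within classes of strength and width together. Leaving out a replicate gave 6.27 to 9.68. Series runs overlapping a replicate 1 run were 16.3% and 28.8% with gaps up to 500 and 2000 bp, and 87.7% had any replicate 1 peak. For replicate 2 these were 1.49% with gaps up to 500 bp and 54.6% with any peak. The difference of chromosome I from the others was -2.45 points with gaps up to 500 bp, -13.8 with gaps up to 2000 bp and -3.70 in the replicate 2 list. For these values the cause was not tested.

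No paired analysis was possible because peaks of the inputs were not analysed and the samples entered no model. What depth limits in the shorter replicate 2 list was not tested, since the lists hold no read counts.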
